A study of Mus musculus with 17 samples.

Results

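Sox4 and 9 genes known as targets or readouts of Wnt signalling (Sox9, Axin2, Lgr5, Ascl2, Nkd1, Rnf43, Znrf3, Lef1 and Myc) were examined in 17 MC38 tumors, 10 genes of the 21931 in the deposited table. The 10 genes were taken by name. Sox4 was selected on the p of its difference between the groups, the 7th smallest of the 13005 genes tested, so that difference is a description here and carries no test. MC38 is a colon cancer line of C57BL/6J mice. The labels give the genotype as WT, and the cells were injected subcutaneously on either side of C57BL/6J mice aged 6 to 8 weeks. In the cryoablation group (8 tumors), freezing was done on 1 tumor at day 7 of growth, when tumors measured 5 to 6 mm, and the tumor on the other side was collected 5 days after freezing for RNA sequencing. The control group (9 tumors) was labelled with the same day, and the labels name no sham procedure for it. The labels give freezing cycles of 20 s, whereas the study's methods give a longer time. The study's text also names the sizes of the groups the other way round. The groups here follow the labels, and if the group names were exchanged every signed difference would turn. The study's results name Hbb-bs and S100A9 as lower in control than in cryoablation tumors. Under the labels, Hbb-bs had means of 14.5 and 42.1 CPM (counts scaled to library size) in control and cryoablation tumors. S100a9 had 2.97 and 9.07 CPM, the same direction. Every tumor is a mixture of implanted cells and host cells, and nothing in the labels says whether each came from a separate mouse, so the p values measure the spread between these tumors.

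In the canonical Wnt pathway, a secreted Wnt protein binds a Frizzled receptor with an LRP co-receptor, which stops the degradation of beta-catenin, and beta-catenin then activates genes together with the TCF and LEF factors on DNA. Several of the genes it activates act back on the pathway. Axin2 and Nkd1 dampen it inside the cell, the ubiquitin ligases Rnf43 and Znrf3 remove Frizzled from the surface, and the receptor Lgr5 with its R-spondin ligands counters that removal. Lgr5 and Ascl2 mark stem cells of the intestinal crypt, where Wnt signalling is strongest. Sox4 and Sox9 are DNA-binding factors of the Sox family, and Sox4 is also a target of TGF-beta signalling. Myc drives growth and division.

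The labels describe the implanted cells both as colon cancer cells and as mesenchymal cells, and genes of the gut lining were low. Cdx2, the factor that sets intestinal identity, had 0 reads in all 17 tumors, which allows at most 3 counts per tumor, or 0.168 to 0.222 CPM (counts scaled to library size). Vil1, a protein of the microvilli, had at most 11 reads in a tumor and Krt20, a keratin of the gut surface, at most 7. Epcam and Cdh1, which hold epithelial cells together, had a mean of 1.18 and 3.34 FPKM (reads scaled to gene length and library size). In the same tumors Col3a1, a collagen of fibroblasts, had a mean of 566 FPKM and C1qa, of macrophages, 470 FPKM. The keratins Krt8, Krt18 and Krt19 of simple epithelia had means of 5.02, 6.03 and 8.82 FPKM. The defining markers Cdx2, Vil1 and Krt20 were therefore at or near 0, and the levels below are those of the whole tumor tissue, in which fewer cells of a type and less RNA per cell cannot be told apart.

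Total counts ranged from 13524899 to 17898672 per tumor. Cryoablation replicates 2, 4 and 5 stood apart from the other 14 tumors. On the component that held 46.2% of the variance of the 500 most variable genes they lay at -28.4, -39.4 and -33.9, while control tumors lay between -8.32 and 19.9. Relative to the mean of all tumors, levels in these 3 also fell with gene length, by 0.301, 0.268 and 0.391 log2 units for each doubling of length, against values between -0.168 and 0.231 in the others. The values of the 10 genes are therefore given with and without them where enough reads remained, and those of other genes where the direction or the call changed.

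The sequence before the start site was read from RefSeq (GRCm38.p6) for 6 of the 10 genes, in 10 windows of 250 bases. Sox9, Lgr5, Znrf3 and Myc had no window. Each window was searched on both strands for CTTTGA, which reads TCAAAG on the other strand, a core of the site that TCF and LEF factors bind, and for ACAAAG, which reads CTTTGT on the other strand, a core bound by Sox factors. Of 32851 windows of all genes, 13.8% held the first and 16.5% the second. Of the 10 windows, 1 held a match, a window before an internal start of Lef1, with TCAAAG beginning 180 and 120 bases and ACAAAG 146 bases before the start. It is shown first, with the matches in capitals, followed by the windows of Sox4, the gene the comparison starts from, and Axin2, the best known target of the pathway. Neither of these contained the letters searched. They are given as chr3:131156044-131156293 (plus strand), chr13:28953700-28953949 (minus strand) and chr11:108920099-108920348 (plus strand), each written 5′ to 3′.
Lef1 window: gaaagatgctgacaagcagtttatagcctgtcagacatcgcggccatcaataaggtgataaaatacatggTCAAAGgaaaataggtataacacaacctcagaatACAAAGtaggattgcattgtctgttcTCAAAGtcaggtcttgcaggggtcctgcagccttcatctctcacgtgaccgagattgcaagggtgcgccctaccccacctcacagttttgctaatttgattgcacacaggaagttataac
Sox4 window: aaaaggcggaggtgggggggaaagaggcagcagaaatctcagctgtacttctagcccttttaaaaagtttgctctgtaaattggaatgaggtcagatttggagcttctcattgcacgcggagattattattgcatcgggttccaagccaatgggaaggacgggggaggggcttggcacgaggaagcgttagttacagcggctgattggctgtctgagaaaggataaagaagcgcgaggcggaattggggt
Axin2 window: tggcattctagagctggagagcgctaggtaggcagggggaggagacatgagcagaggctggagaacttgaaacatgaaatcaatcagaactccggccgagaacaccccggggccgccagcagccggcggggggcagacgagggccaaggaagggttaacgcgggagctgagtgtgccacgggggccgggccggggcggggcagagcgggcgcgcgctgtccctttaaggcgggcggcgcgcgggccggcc
A match is a run of letters and was not tested as a binding site.

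The 10 genes fell into 3 abundant genes, 1 gene near 1 FPKM and 6 genes below it. FPKM was used for this order because it accounts for gene length. Myc had the highest mean level at 83.5 FPKM (range 73.3 to 116 over 17 tumors), followed by Sox9 at 56.4 FPKM (41.1 to 116) and Sox4 at 21.9 FPKM (15.4 to 34.3). Myc exceeded Sox9 in 16 of 17 tumors, though their ranges overlapped. Sox9 exceeded Sox4 in 17 of 17, and neither those ranges nor the ranges of Sox4 and Znrf3 overlapped. Znrf3 had a mean of 1.02 FPKM (0.337 to 1.49). Ascl2 had 0.378 FPKM and Lef1 0.371 FPKM, and Ascl2 was the higher of the pair in 6 of 17 tumors, so their order was not set beyond the spread. Below them came Axin2 at 0.131 FPKM, Rnf43 at 0.122 FPKM and Nkd1 at 0.0797 FPKM, where each neighbour was higher in 10 of 17 tumors. Lgr5 was lowest, at 0.0108 FPKM.

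**Figure D1:**
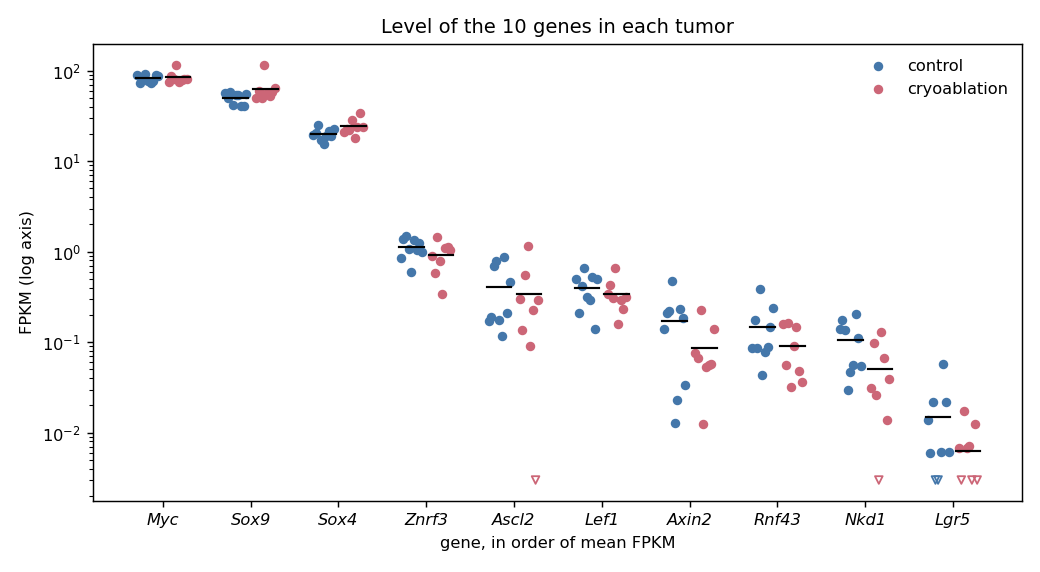
Level of each gene in each tumor, in FPKM on a log axis, with the genes ordered by their mean over 17 tumors. Blue points are the 9 control tumors, red points the 8 cryoablation tumors, bars the group means and open triangles tumors with 0 reads. Myc, Sox9 and Sox4 lay at 15.4 FPKM or above in every tumor, and Lgr5 reached at most 0.0572 FPKM.

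The lowest genes rested on few reads. Over all 17 tumors the table held 31 reads of Lgr5, 98 of Nkd1, 165 of Ascl2, 197 of Axin2 and 213 of Rnf43, against 28008 of Sox4, 61492 of Sox9 and 60155 of Myc. Lgr5 had 0 to 10 reads in control tumors (median 1) and 0 to 3 in cryoablation tumors (median 1). The filter on low counts kept 6 of the 10 genes (Sox4, Sox9, Axin2, Znrf3, Lef1 and Myc). The values of the other 4 come from a fit without the filter.

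The difference between the groups was then taken for each gene in CPM normalized by edgeR's TMM method, as the log2 difference, cryoablation minus control, with its standard error (SE). The study called a gene at a log2 difference beyond 1 in either direction together with a p below 0.05. Its methods mention adjustment of p values but do not say whether this p was the adjusted one. With the unadjusted p, 0 of the 10 genes met that threshold, beside 64 of all 13005 genes tested (0.492%). In the fit without the filter, from which 4 of the 10 were taken, 432 of 17819 genes met it (2.42%). Apart from Sox4, 1 gene (Sox9) had an unadjusted p under 0.05, which 639 of the 13005 genes tested had (4.91%; 3.74% higher and 1.17% lower in the cryoablation group) and 992 of 17819 without the filter (5.57%). With Benjamini-Hochberg adjustment 0 genes of the table passed 0.05 with edgeR (0.0%), and 0 also with DESeq2 and with limma's voom, where 881 and 1312 genes had an unadjusted p under 0.05. The groups overlapped for each of the 10 genes, as they did for each of the 13005 genes tested (0.0% without overlap).

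Sox4 (ENSMUSG00000076431, chromosome 13, 28948919 to 28953713 in GENCODE M21, GRCm38, minus strand) is a gene of 1 exon. Its level was 78.9 CPM in the lowest control tumor, 92.0 in the median one and 108 in the highest. In the cryoablation group the lowest was 96.4 CPM, the median 114 and the highest 157. All 8 cryoablation tumors lay above the median control tumor and 5 above the highest control tumor, while the other 3 lay within the control range. The means were 91.9 ± 10.4 CPM (SD, n = 9) and 120 ± 23.5 CPM (SD, n = 8), a 1.31-fold difference (log2 difference 0.39, SE 0.11). The highest values were 157 CPM in cryoablation replicate 7 and 153 CPM in cryoablation replicate 4, of which the former did not belong to the 3 tumors that stood apart. Without those 3 tumors the log2 difference was 0.30 (SE 0.11), with the 5 remaining cryoablation tumors at 96.4 to 157 CPM. Under limma's voom, which gives deviating tumors less weight, it was 0.23. The leaving out of any tumor gave between 0.32 and 0.43. All of these use tumors that chose the gene and add no independent evidence. The noncoding gene Gm26735 overlaps Sox4 by 2753 bases on the opposite strand, and whether the authors counted by strand is not given in the sources used here, so reads from the pair cannot be told apart. The same holds for Axin2 and Gm11670 and for Lef1 and Gm43352, antisense genes that overlap them by 2706 and 1620 bases, and for Lgr5 and A930009A15Rik (12463 bases on the opposite strand). Genes on the same strand overlap Nkd1 (Gm45496), Rnf43 (1110028F11Rik) and Lef1 (Gm42449), whose reads are equally uncertain.

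Sox9 (ENSMUSG00000000567, chromosome 11, 112782224 to 112787760), a Sox factor of crypt cells and of cartilage, differed by a similar amount but rested on fewer tumors. Its control values ranged from 158 to 252 CPM with a median of 212. Cryoablation tumors ranged from 188 to 543 CPM with a median of 246. Cryoablation replicates 4, 5 and 2 held the 3 highest values, 543, 309 and 287 CPM (the tumors that stood apart), and the other 5 lay between 188 and 264 CPM, which overlapped the control group. In FPKM, which is not scaled by TMM, these 3 tumors had 116, 57.3 and 59.3, against 41.1 to 57.9 in control tumors and 64.2 in cryoablation replicate 8. The means were 202 ± 34.6 CPM (SD, n = 9) and 278 ± 116 CPM (SD, n = 8), a log2 difference of 0.46 (SE 0.19, with edgeR adjusted p = 0.728). Without cryoablation replicate 4 it was 0.25 (edgeR adjusted p = 0.883), and without all 3 it was 0.09 (SE 0.13, with edgeR adjusted p = 0.941), and in neither fit was its unadjusted p under 0.05. Of the cartilage genes, which Sox9 is known to control, Col11a2 had a mean of 1.33 FPKM and the summed level of the list was 0.924 to 2.27 FPKM in the control group and 1.01 to 2.10 FPKM in the cryoablation group. Keratins of simple epithelia were high in the same 3 tumors, with Krt8 at 37.4, 25.1 and 58.8 CPM, against at most 19.9 CPM in a control tumor. The summed level of the 15 genes of intestinal epithelium was 72.1, 66.9 and 97.8 FPKM there, 7.39 to 35.7 FPKM in the other cryoablation tumors and 8.68 to 54.2 FPKM in the control group. Their part in the difference of Sox9 was not tested.

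Myc (ENSMUSG00000022346, chromosome 15, 61985391 to 61990374) was the most abundant of the 10 genes and did not differ beyond the spread. Control tumors ranged from 188 to 260 CPM (median 224) and cryoablation tumors from 199 to 357 CPM (median 215). The log2 difference was 0.15 (SE 0.12, 95% interval -0.10 to 0.40, with edgeR adjusted p = 0.739). Cryoablation replicates 4, 2 and 5 were again the highest of all tumors in normalized CPM, at 357, 274 and 264 CPM, and the other 5 lay between 199 and 219 CPM. In FPKM, which is not scaled by TMM, these 3 tumors had 116, 86.3 and 74.6, against 73.3 to 93.0 in control tumors. Without those 3 the direction turned, to -0.08 (SE 0.09, with edgeR adjusted p = 0.941). Without cryoablation replicate 4 alone it was 0.04.

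Among the genes that act back on the pathway, the mean was lower in the cryoablation group for Axin2, Nkd1, Rnf43, Znrf3 and Lgr5, and 0 of these 5 differences passed the test (adjusted p = 0.699 for Nkd1 to 0.746 for Znrf3 with edgeR). Axin2 (ENSMUSG00000000142, chromosome 11, 108920349 to 108950783), the scaffold that helps degrade beta-catenin, had 1 to 39 reads in control tumors (median 18) and 1 to 21 in cryoablation tumors (median 5). Of the 8 cryoablation tumors, 7 lay below the median control tumor, but 3 control tumors had 3 reads or fewer, so the groups overlapped over most of their range. Its means were 0.899 ± 0.761 CPM (SD, n = 9) and 0.476 ± 0.334 CPM (SD, n = 8), a log2 difference of -0.88 (SE 0.55, 95% interval -2.04 to 0.28, with edgeR adjusted p = 0.728). The value was -0.54 at its smallest with 1 tumor left out, -0.62 without the 3 tumors that stood apart and -0.34 under limma's voom. Without cryoablation replicate 3, the highest of its group, it was -1.22 and its unadjusted p came just under 0.05 (edgeR adjusted p = 0.465).

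Nkd1 (ENSMUSG00000031661, chromosome 8, 88521354 to 88594884), which binds Dishevelled, had 2 to 16 reads in control tumors (median 9) and 0 to 8 in cryoablation tumors (median 2.5). Its log2 difference in the fit without the filter was -0.93 (SE 0.55, with edgeR adjusted p = 0.699). It was -1.34, with an unadjusted p under 0.05, without cryoablation replicate 5, which had the highest count of its group (edgeR adjusted p = 0.940). Rnf43 (ENSMUSG00000034177, chromosome 11, 87662722 to 87735539) had 4 to 38 reads in control tumors (median 10) and 3 to 18 in cryoablation tumors (median 6.5), with a log2 difference of -0.61 (SE 0.43, with edgeR adjusted p = 0.706). Without the 3 tumors that stood apart it was -0.44. Nkd1 did not pass the filter of that fit, which was not run without the filter. Its mean was 0.154 CPM in the remaining cryoablation tumors, against 0.463 CPM in control tumors. In normalized CPM, 3 cryoablation tumors lay below the lowest control tumor for each of these genes. Znrf3 (ENSMUSG00000041961, chromosome 11, 5276324 to 5444847), the ligase related to Rnf43, was measured with more reads, 66 to 210 in control tumors and 36 to 192 in cryoablation tumors. Control tumors had 5.06 to 10.6 CPM (median 8.15) and cryoablation tumors 3.47 to 10.5 CPM (median 7.49). Its log2 difference of -0.22 (SE 0.19, with edgeR adjusted p = 0.746) was -0.02 without the 3 tumors that stood apart, of which cryoablation replicates 5 and 2 had the lowest levels of the group, 3.47 and 5.34 CPM. Znrf3 has 7893 bases in the deposited table, and Lef1 (8788 bases) and Lgr5 (10264 bases) are longer. When the fit was adjusted for length and GC jointly, the log2 difference of Znrf3 was -0.13. The part of length alone in that difference was not tested.

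The crypt genes Lgr5 (ENSMUSG00000020140, chromosome 10, 115450311 to 115587780) and Ascl2 (ENSMUSG00000009248, chromosome 7, 142966829 to 142969264) differed by -1.07 (SE 0.75, with edgeR adjusted p = 0.706) and -0.13 (SE 0.59, with edgeR adjusted p = 0.938) on the log2 scale in the fit without the filter. For Lgr5, 10 of its 31 reads were in control replicate 7, and without that tumor the log2 difference was -0.48. It did not pass the filter of the fit without the 3 tumors that stood apart, which was not run without the filter. Its 95% interval ran from -2.64 to 0.51, so a difference of the size seen for Sox4 was not detectable at this depth. Ascl2, a basic helix-loop-helix factor, had 3 to 24 reads in control tumors (median 6) and 0 to 27 in cryoablation tumors (median 6.5), with the highest count of all tumors in cryoablation replicate 4 and 0 reads in cryoablation replicate 7. Its direction turned without control replicate 4 (0.04), control replicate 7 (0.08) or cryoablation replicate 7 (0.07), and it was -0.58 without the 3 tumors that stood apart.

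Lef1 (ENSMUSG00000027985, chromosome 3, 131110471 to 131224356), a partner of beta-catenin on DNA that T cells also express, had 1.16 to 5.57 CPM in control tumors (median 3.34) and 1.83 to 6.64 CPM in cryoablation tumors (median 2.60). Of the 8 cryoablation tumors, 6 lay below the median control tumor, and the highest value of all tumors, 6.64 CPM, was in cryoablation replicate 4. The log2 difference was -0.10 (SE 0.31, 95% interval -0.75 to 0.55, with edgeR adjusted p = 0.904), -0.45 without the 3 tumors that stood apart (edgeR adjusted p = 0.941) and 0.06 under limma's voom. Control replicate 4, with the highest Lef1 level of the control group, also had the highest summed level of the 10 T cell genes, 64.0 FPKM, against 12.1 to 33.8 FPKM in the other control tumors and 9.18 to 41.3 FPKM in the cryoablation group. Without that tumor the log2 difference of Lef1 was 0.02. Cryoablation replicate 4, with the highest Lef1 of all tumors, had a T cell sum of 18.7 FPKM, below the median of its group (19.6 FPKM). The part of T cells in the Lef1 level was not tested.

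**Figure D2:**
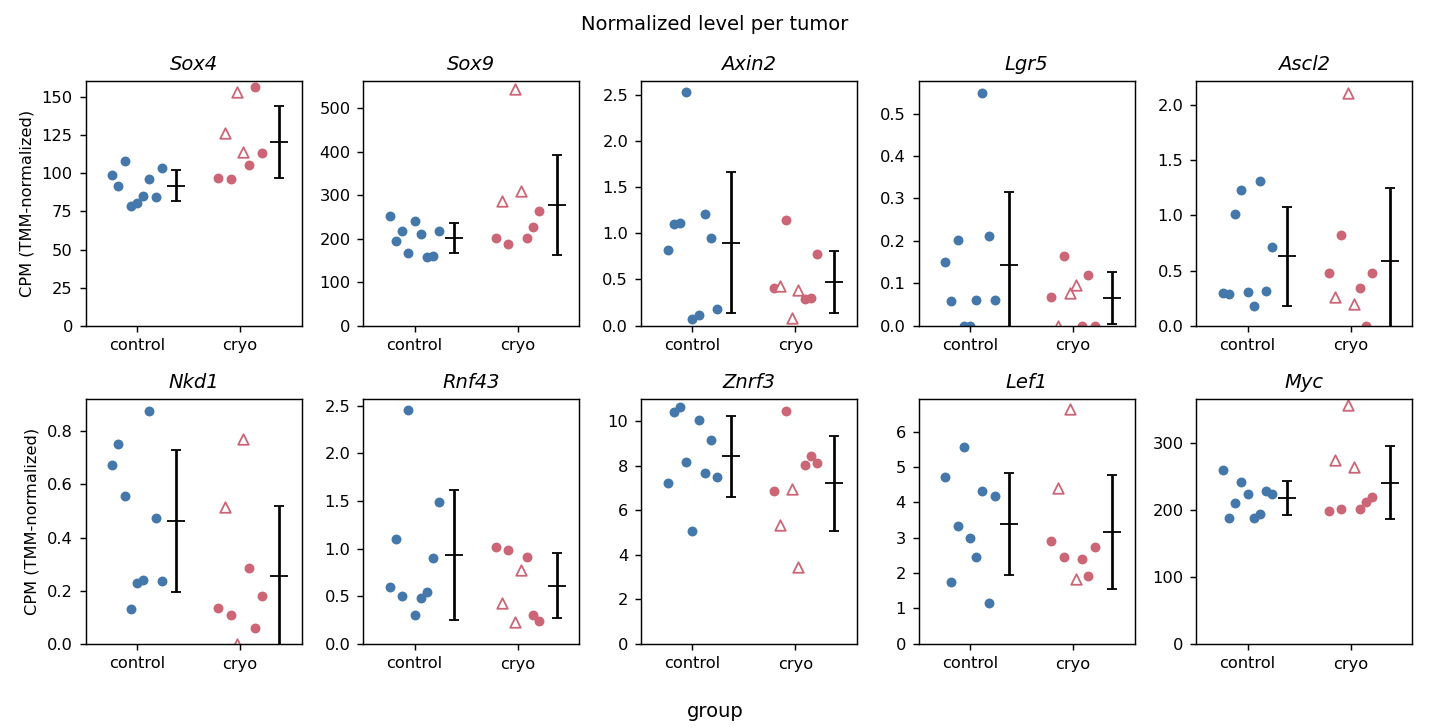
TMM-normalized CPM of each gene in each tumor, by group. Blue points are control tumors, red points cryoablation tumors, open triangles cryoablation replicates 2, 4 and 5, and the black bars beside them give the group mean and SD (cut at 0). The open triangles hold the 3 highest values for Sox9 and for Myc, and a filled point the highest for Sox4.

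**Figure D3:**
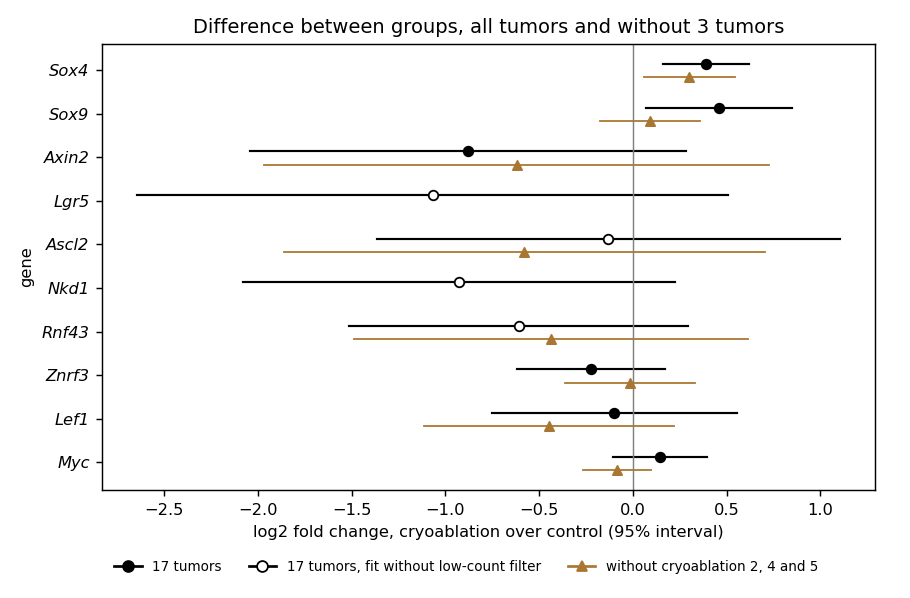
Log2 difference between cryoablation and control for each gene with its 95% interval, for all 17 tumors (black; open circles from the fit without the filter) and without cryoablation replicates 2, 4 and 5 (brown triangles). Lgr5 and Nkd1 did not pass the filter of the smaller fit. Sox4 was chosen for this contrast, the interval of Sox9 included 0 without the 3 tumors, and the intervals of the other 8 genes included 0 in both fits where fitted.

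Pearson's r between the log2 CPM of Sox4 and Sox9 was 0.685 over 17 tumors (Spearman's rho 0.703), the 37th highest of the 13004 other genes tested, and 0.646 without cryoablation replicates 7 and 4, the farthest from the Sox4 median. After the group means were subtracted it was 0.560 (rank 106). Without the 3 tumors that stood apart it was 0.414 (rank 1901), inside the range from the 5th to the 95th percentile of all genes in that subset, -0.512 to 0.542. For Myc the r with Sox4 was 0.487 (rho 0.373) and -0.092 without the 3 tumors. Lef1 (r 0.166), Znrf3 (r -0.190) and Axin2 (r -0.339) lay within -0.476 to 0.442, the range from the 5th to the 95th percentile of all genes. Myc lay above that range. Of the genes that the filter left out, Rnf43 lay below it (r -0.548, rho -0.500, and r -0.434 without the 3 tumors). Nkd1 (r -0.327), Ascl2 (r -0.110) and Lgr5 (r 0.011) lay within it. All these values share the tumors, their depth and their normalization and describe these 17 tumors.

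**Figure D4:**
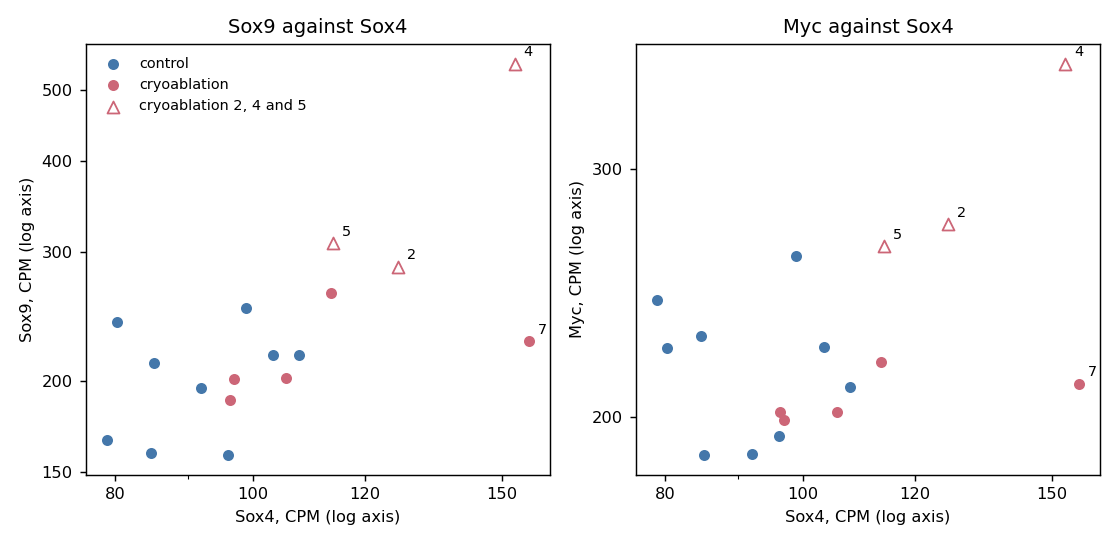
Sox9 (left) and Myc (right) against Sox4 in each of 17 tumors, all in TMM-normalized CPM on log axes. Blue points are control tumors, red points cryoablation tumors and open triangles cryoablation replicates 2, 4 and 5. Replicate 7 was high in Sox4 at 157 CPM with Sox9 at 227 CPM and Myc at 211 CPM, inside the control ranges.

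Among the 5 genes most like Sox4 by r over 17 tumors were Klf5 (0.814), a zinc-finger factor, Tcf4 (0.805), Usp13 (0.795), a deubiquitinase, and Gpr137c (0.783). Tcf4 is a basic helix-loop-helix factor and, in spite of its name, not the TCF factor of the Wnt pathway. Those most opposed were Vrk2 (-0.814), a kinase, Frmd8 (-0.807), Nmt1 (-0.804), which attaches myristate to proteins, Tbc1d25 (-0.798) and Gucd1 (-0.795). None of the 10 is a Wnt target among the lists used here. Klf5 ranged from 5.17 to 7.45 CPM in the control group and from 5.40 to 16.2 CPM in the cryoablation group, with its highest values, 16.2 and 10.6 CPM, in cryoablation replicates 4 and 2. Tcf4 ranged from 86.1 to 110 CPM in the control group and from 98.5 to 188 CPM in the cryoablation group. Without the 3 tumors that stood apart, 1 of the 10 genes (Tcf4, r 0.826) stayed among the 5 most like or the 5 most opposed.

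The rest of the pathway was described from 9 lists of 127 genes, of which 88 passed the filter. At an unadjusted p under 0.05, 1 was higher and 3 were lower in the cryoablation group (4.55%, beside 4.91% of all genes tested), and 0 passed after adjustment. The median log2 difference of the 88 genes was -0.11, beside -0.01 for all genes tested, and it turned to 0.03 without the 3 tumors that stood apart. Without the 3 tumors that stood apart, 3 of 89 genes had a p under 0.05 (beside 2.45% of all genes), and none of the 4 was among them. The median was below 0 for 9 of the 9 lists with all tumors and above 0 for 6 of 9 without those 3, the exceptions being the ligands, the secreted inhibitors and the nuclear factors.

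Of the Wnt ligands, 11 of 19 were tested and 0 had a p under 0.05. Wnt10b had the highest level (mean 14.1 FPKM), then Wnt10a (6.15 FPKM), with log2 differences of -0.17 (SE 0.18) and 0.41 (SE 0.24), which were 0.09 and 0.04 without the 3 tumors. Of the receptors, 12 of 15 were tested and Fzd1, a Frizzled, was lower. Fzd1 had 8.66 to 28.3 CPM in control tumors and 8.01 to 21.9 CPM in cryoablation tumors, and the groups overlapped. Its log2 difference was -0.57 (SE 0.23, with edgeR adjusted p = 0.728), or -0.35 without the 3 tumors. Ryk and Fzd2, the receptors with the highest levels (23.8 and 23.6 FPKM), differed by 0.11 (SE 0.10) and 0.14 (SE 0.17), or -0.07 and 0.02 without the 3 tumors. Of the R-spondins and the receptors Lgr4 and Lgr6, 2 of 6 were tested, both receptors. Lgr4, the relative of Lgr5, had a mean of 2.77 FPKM and differed by -0.01 (SE 0.18), or 0.20 without the 3 tumors.

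Among the secreted inhibitors 7 of 15 were tested, with a median log2 difference of -0.40 (-0.55 without the 3 tumors) and 1 gene in each direction at p under 0.05. Dkk2, which binds the LRP co-receptors, was the most abundant at 48.0 FPKM. It ranged from 115 to 195 CPM in control tumors (median 152) and from 152 to 286 CPM in cryoablation tumors (median 194), and all 8 cryoablation tumors lay above the median control tumor. Its log2 difference was 0.38 (SE 0.13, with edgeR adjusted p = 0.728), but its highest values, 286, 241 and 239 CPM, were in cryoablation replicates 5, 2 and 4, and without them it was 0.15. Dkk3, a relative of Dkk2, had a log2 difference of -0.58 (SE 0.26, with edgeR adjusted p = 0.728), with 7 of the 8 cryoablation tumors below the median control tumor, and -0.56 without the 3 tumors. Sfrp2, which binds Wnt proteins, differed by -0.66 (SE 0.49).

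Of the cytoplasmic transducers, 15 of 16 were tested and 0 had a p under 0.05. Ctnnb1, which encodes beta-catenin, was the most abundant (61.8 FPKM). Its level was 262 to 414 CPM in control tumors (median 355) and 320 to 401 CPM in 5 of the cryoablation tumors, but 139, 126 and 83.8 CPM in cryoablation replicates 2, 4 and 5. The log2 difference was -0.33 (SE 0.27, with edgeR adjusted p = 0.740) with all tumors and 0.09 without those 3. In normalized CPM, Ctnnb1 was thus lowest in the tumors where Sox9, Myc and Dkk2 were highest. These tumors also differed in their trend over gene length, and its part in these levels was not tested. Csnk1a1, a kinase that marks beta-catenin for degradation, differed by 0.04 (SE 0.09).

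Of the nuclear factors, 13 of 13 were tested and Tcf7, a TCF factor that T cells also express, was lower, at 32.7 to 41.2 CPM in control tumors and 23.3 to 38.4 CPM in cryoablation tumors. Its log2 difference was -0.21 (SE 0.10, with edgeR adjusted p = 0.728), with its 3 lowest values in cryoablation replicates 5, 2 and 4, and -0.09 without them. Pygo2 and Cby1, a coactivator and an inhibitor of beta-catenin, differed by 0.15 (SE 0.14) and 0.16 (SE 0.20), which turned to -0.14 and -0.12 without the 3 tumors. Of 12 other Wnt targets 7 were tested and 0 had a p under 0.05. The most abundant were Jun (111 FPKM), at -0.05 (SE 0.08) or 0.03 without the 3 tumors, and the adhesion receptor Cd44 (77.7 FPKM), at 0.07 (SE 0.13).

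Of 17 other Sox genes 7 were tested and 0 had a p under 0.05. Sox2, a factor of stem cells, had a mean of 5.37 FPKM and differed by 0.30 (SE 0.17, with edgeR adjusted p = 0.728), or 0.45, with an unadjusted p under 0.05, without the 3 tumors (edgeR adjusted p = 0.941). Sox18, of endothelium, differed by -0.21 (SE 0.21). Of 14 genes of TGF-beta signalling or linked to Sox4, all were tested and 0 had a p under 0.05. Smad4 differed by -0.09 (SE 0.12), or 0.05 without the 3 tumors, and Tubb3, a tubulin that Sox4 is known to activate in neurons, by -0.03 (SE 0.08).

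**Figure D5:**
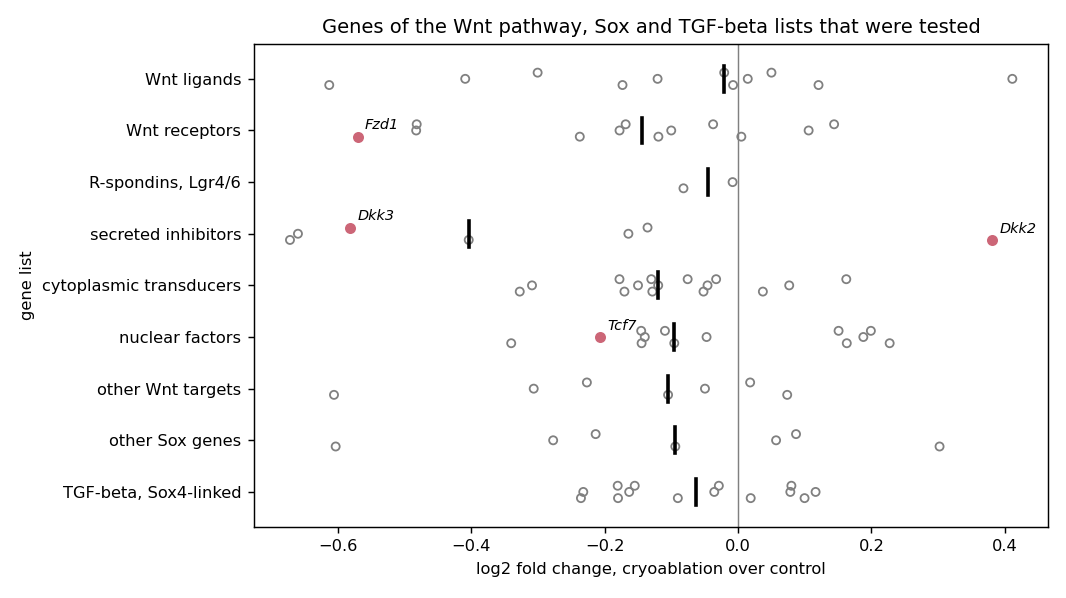
Log2 difference between cryoablation and control for each tested gene of the 9 lists, with the list median as a black bar. Red points are the 4 genes with an unadjusted edgeR p under 0.05 (Fzd1, Dkk3, Tcf7 and Dkk2), and 0 genes passed after adjustment. The 88 points lay between -0.67 and 0.41, and the list medians between -0.40 and -0.02. Without cryoablation replicates 2, 4 and 5, which are included here, 6 of the 9 medians were above 0 and the 9 lay between -0.55 and 0.04.

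Levels of other cell types differed among the tumors beside these genes. The summed level of 8 macrophage genes was 669 to 1737 FPKM in the control group and 486 to 2153 FPKM in the cryoablation group, and that of 8 red blood cell genes was 7.54 to 87.7 FPKM and 34.1 to 171 FPKM. All 4 tested genes of red blood cells were higher at an unadjusted p under 0.05 (beside 4.91% of all genes), with a median log2 difference of 1.49. Without the 3 tumors 1 of 4 kept such a p (beside 2.45% of all genes) and the median was 0.66. The neutrophil genes were highest in cryoablation replicate 7 (77.8 FPKM), the tumor with the highest Sox4, and their sum in the control group reached at most 51.6 FPKM. Genes of dividing cells differed little, with 302 to 443 FPKM and 298 to 423 FPKM and 0 of 10 genes at p under 0.05. At that threshold, 1 of 8 genes of endothelium, 1 of 3 of epidermis, 2 of 7 of adipocytes and 2 of 5 of neutrophils were higher and 1 of 8 of macrophages was lower, and 0 genes of each of these lists had such a p without the 3 tumors. For fibroblasts, cartilage, skeletal muscle and intestinal epithelium, 0 of 10, 0 of 1, 0 of 3 and 0 of 7 genes had one. For T cells it was 0 of 10, and 2 of 10 (Cd3d and Cd5, both lower, chosen for mention after their values were seen) without the 3 tumors. The part of these cells in the levels of the 10 genes was not tested.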

How the data were processed

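RNA was sequenced from 17 distant MC38 tumors, grouped by their labels (9 control, 8 cryoablation). The study's text gives these sizes exchanged. For 21931 genes the authors deposited the raw read count and the FPKM of every tumor. The deposited FPKM equalled count per gene length and total count (relative tolerance 1e-06). Per the labels, the submitters' processing notes name GRCm38 and mm10. Aligner, counting program and strandedness are not given in the sources used here. Start and end in the deposited table equal those of GENCODE M21 for 512 of 21827 shared genes, so positions are from GENCODE M21 (GRCm38) by gene ID. Total counts were 13524899 to 17898672. The intervals come from the fits and include the spread between tumors, whereas the floors cover counting error only.

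Counts were tested with edgeR 4.0.16 (R 4.3.3), with TMM scaling, filterByExpr, group as the sole covariate and its quasi-likelihood test. Benjamini-Hochberg adjustment covered all 13005 genes tested. Principal components and correlations used log2 CPM with a prior count of 2. The filter left out Ascl2, Lgr5, Nkd1 and Rnf43, which were fitted without it. Alternatives were DESeq2 1.42.0, limma 3.58.1 voom with sample quality weights, other scalings and filters, offsets for gene length and GC content, a replicate block and leaving out tumors. The fits were tested on simulated counts.

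The 10 genes, the lists and the tests were chosen with earlier results of these data known. Besides the 10 genes, the text names from each pathway list the genes with an unadjusted p under 0.05 and the 2 with the highest FPKM, from each cell type list the highest gene and epithelial markers, and the 5 genes most like and the 5 most opposed to Sox4. Of these, 1 gene is not reported here.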

Additional observations from a re-analysis of the deposited data

Results flagged for a closer look

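In each group, the highest or lowest tumor was compared with the rest of its group by Dixon's test for the genes named, over 118 gene and group pairs. These include Cdx2, which had 0 reads and could not be marked. Chance alone marks about 1 in 20 where values are normally distributed. CPM was not log-transformed and some genes rest on few reads, so the share expected here is not known. The test marked 15 values. Among the 10 genes, Sox9 in cryoablation replicate 4 reached 543 CPM against 309 CPM in the next tumor. Ascl2 in the same tumor reached 2.11 CPM against 0.819 CPM. Axin2 was 2.52 CPM in control replicate 4 against 1.21 CPM in the next, and Lgr5 was 0.548 CPM in control replicate 7 against 0.211 CPM.

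Of the genes compared with Sox4, cryoablation replicate 4 was lowest for Nmt1 (111 CPM). Of the pathway genes, cryoablation replicate 3 was highest for Fzd1 (21.9 CPM) and Dkk3 (13.4 CPM), and control replicate 1 for Pygo2 (143 CPM). Of the cell type genes, control replicate 7 was highest for Epcam (6.96 CPM), Krt19 (31.0 CPM) and Cfd of adipocytes (56.3 CPM), control replicate 1 for Vil1 (0.672 CPM), control replicate 4 for Cd2 of T cells (24.7 CPM) and control replicate 5 for Hbb-bs of red blood cells (46.0 CPM). Col3a1 was lowest in cryoablation replicate 4 (2721 CPM, next 5114 CPM).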

How the results depend on the processing

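Over all alternatives Sox4, Sox9, Axin2, Lgr5, Nkd1, Rnf43 and Znrf3 kept their direction, where they could be fitted, and 0 of the 9 genes tested passed an adjusted p of 0.05 (the lowest was 0.465). Lef1 turned positive with voom (0.0609) and with the length and GC offsets (0.0536), and Myc negative (-0.0841) without cryoablation replicates 2, 4 and 5. With 1 tumor left out, the log2 fold change was 0.32 to 0.43 for Sox4, 0.25 to 0.52 for Sox9, -1.22 to -0.54 for Axin2, -1.42 to -0.48 for Lgr5, -0.75 to 0.0799 for Ascl2, -1.34 to -0.74 for Nkd1, -0.76 to -0.29 for Rnf43, -0.32 to -0.12 for Znrf3, -0.34 to 0.0163 for Lef1 and 0.04 to 0.18 for Myc.

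The 64 genes past the study threshold became 432 without a filter, 39 with the offsets and 33 with the replicate block, and 34 (without cryoablation replicate 5) to 165 (without cryoablation replicate 3) with 1 tumor left out. The 639 genes with an unadjusted p under 0.05 became 1312 under voom, 992 without a filter and 325 without the 3 tumors, and 252 (without cryoablation replicate 2) to 1388 (without cryoablation replicate 3). The 4 genes of the pathway lists became 13 under voom and 8 without a filter, and 1 (without control replicate 4 or cryoablation replicate 5) to 8 (without control replicate 5 or cryoablation replicate 3). Of the 10 genes most like or opposed to Sox4, 5 were also found with Spearman's rho, 3 after subtracting group means and 1 without the 3 tumors, a setting chosen after seeing the data. The causes were not tested.

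The deviations of same-numbered tumors correlated by -0.51 to 0.64, over 0.1 for 4 of 8 numbers, and 2 of 8 numbers matched best with themselves. The labels give no shared mouse or day, so the numbers were not taken as pairs. With the replicate block, Sox9 differed by 0.40 (edgeR adjusted p = 0.618, its unadjusted p no longer under 0.05) and Znrf3 by -0.27. Depth limits Lgr5, Nkd1, Ascl2, Axin2 and Rnf43, whose reads together numbered 12 to 98 in control tumors and 13 to 59 in cryoablation tumors.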
